A study of Mus musculus with 12 samples.

Results

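The genes of MHC class I antigen presentation were followed in mouse brain after traumatic brain injury (TBI) and after treatment with zileuton. The set holds 10 genes named by symbol (H2-D1, H2-K1, B2m, Tap1, Tap2, Tapbp, Psmb8, Psmb9, Psmb10 and Nlrc5), matched to their Ensembl identifiers in both count tables, out of 55638 identifiers in either table. Brain RNA of adult male wild-type C57BL/6J mice of 20 to 25 g was sequenced in 4 groups of 3 mice. In the 2018 batch, sham mice had the surgery without the impact, and TBI mice were taken 7 days after a controlled cortical impact (3 mm tip, 1.5 m/s, 1.5 mm depth, 100 ms dwell). In the 2022 batch, TBI mice of 7 days were set beside injured mice injected intraperitoneally with zileuton, an inhibitor of 5-lipoxygenase, at a daily 10 mg per kg (vehicle corn oil). The labels call the comparison mice of 2022 TBI and name no injection (the study's text describes them as given the vehicle), and the source labels of the zileuton mice give days 7, 8 and 9 where their titles give 7. The labels name the tissue as brain, and the study's text calls it pericontusional, in sham mice too. Nothing in the sources says that mice were pooled, and both comparisons stay within a batch.

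MHC class I molecules carry short peptides from the inside of a cell to its surface, where CD8+ T cells read them and natural killer (NK) cells sense their loss. The proteasome cuts proteins into peptides, the transporter TAP moves them into the endoplasmic reticulum, and tapasin helps to load them onto a heavy chain paired with beta-2-microglobulin. Interferon exposure is known to raise the whole set, in part by swapping 3 catalytic subunits of the proteasome for the immunoproteasome subunits and by inducing Nlrc5, a transactivator of class I genes. In healthy brain, class I levels are known to be low in neurons and higher in microglia and endothelium.

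The promoters of the heavy chains and of B2m carry the sequence elements for which the set is known, and those stretches are shown here because the class I molecule is made of these 3 chains and the heavy chains share them. Windows of 250 bases before to 50 bases after each start site were taken from RefSeq on GRCm38.p6, where 8 of the 10 genes had one (Tap2 and Nlrc5 were not matched). Capitals mark every match, on either strand, to 5 motifs: GAAA, any 2 bases and GAAA again (core of the interferon-stimulated response element), TTCNNNGAA (core of the gamma-activated site), TGACG (core of the X2 box), CCAAT (Y box) and the NF-kappa-B consensus. The first run lies just before the upstream of 2 start sites of H2-K1 on the minus strand, chr17:34000348-34000472. The run for H2-D1 covers 30 bases of the plus strand, chr17:35262909-35262938. The run for B2m is on the plus strand, chr2:122147542-122147681.
H2-K1: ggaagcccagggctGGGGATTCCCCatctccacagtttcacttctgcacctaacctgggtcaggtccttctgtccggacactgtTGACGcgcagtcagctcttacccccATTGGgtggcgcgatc
H2-D1: ggaagcccagggctGGGGATTCCCCatctc
B2m: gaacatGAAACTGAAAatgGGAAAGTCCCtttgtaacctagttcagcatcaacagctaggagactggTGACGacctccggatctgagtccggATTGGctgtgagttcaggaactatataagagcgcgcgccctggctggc
From 20 bases before the NF-kappa-B match to the end of the X2 core, H2-K1 and H2-D1 were identical at 91 of 95 bases, and the run of H2-D1 equals the first 30 bases of that of H2-K1.

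Tap1 and Psmb9 lie head to head, and the 225 bases between their start sites serve both, so that 1 TGACG match falls in the windows of both genes. That match is shown on the plus strand at chr17:34187458-34187487, and the only match in the window of Psmb8 is shown on the plus strand at chr17:34198088-34198117.
Tap1 and Psmb9: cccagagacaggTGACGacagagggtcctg
Psmb8: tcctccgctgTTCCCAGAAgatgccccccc
TGACG was found in the windows of 5 of the 8 genes (H2-K1, H2-D1, B2m, Tap1 and Psmb9) against 20.8% of all 32851 windows in the table. CCAAT was found in 6 of 8 (those 5 and Tapbp) against 37.4%, and the NF-kappa-B consensus in 3 of 8 (H2-K1, H2-D1 and B2m) against 8.46%. The paired GAAA was found in B2m alone (3.44% of all windows) and TTCNNNGAA in Psmb8 alone (8.3%). The window of Psmb10 held none of the 5 motifs. There and in every other window without a match, this says only that the motif as written is absent. Variants of a motif were not searched. A match is a description of the sequence and not a measured binding site.

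The libraries of 2018 held 42929862 to 48684674 counts and those of 2022 held 27845562 to 35453257. As a check of the TBI labels, Gfap and Cd68 had edgeR log2 fold changes of 3.72 and 3.62 over sham. Neuronal markers were present in all libraries, with a summed level of 5130 to 8676 CPM, the counts scaled to 1000000 per library. Summed choroid plexus markers stood at 1071, 18.4 and 54.9 CPM in sham replicates 1, 2 and 3 and at 1153 to 1332 CPM in the 2018 TBI libraries. They spanned 10.9 to 1053 CPM in the 2022 TBI libraries and 14.8 to 1473 CPM in the zileuton libraries, so the amount of choroid plexus differed between libraries of 1 group. Its part in the values below was not tested.

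To see how TBI altered class I presentation, the 3 TBI libraries of 2018 were compared with the 3 sham libraries with edgeR's quasi-likelihood test. Of the 10 genes, 9 rose at an adjusted p under 0.05 and none fell. Psmb10 did not pass. Over all 19536 genes tested, 16.8% were called higher and 11.2% lower. The median log2 fold change of the 10 genes was 3.38, against 0.02 over all genes, and 6 of them rose at least 8-fold, as 1.92% of all genes did. In 9 of the 10 genes every TBI library lay above every sham library, which held for 24.6% of all genes. The RNA is from bulk tissue, so more cells of a type that carries these transcripts and more RNA per cell cannot be told apart.

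**Figure D1:**
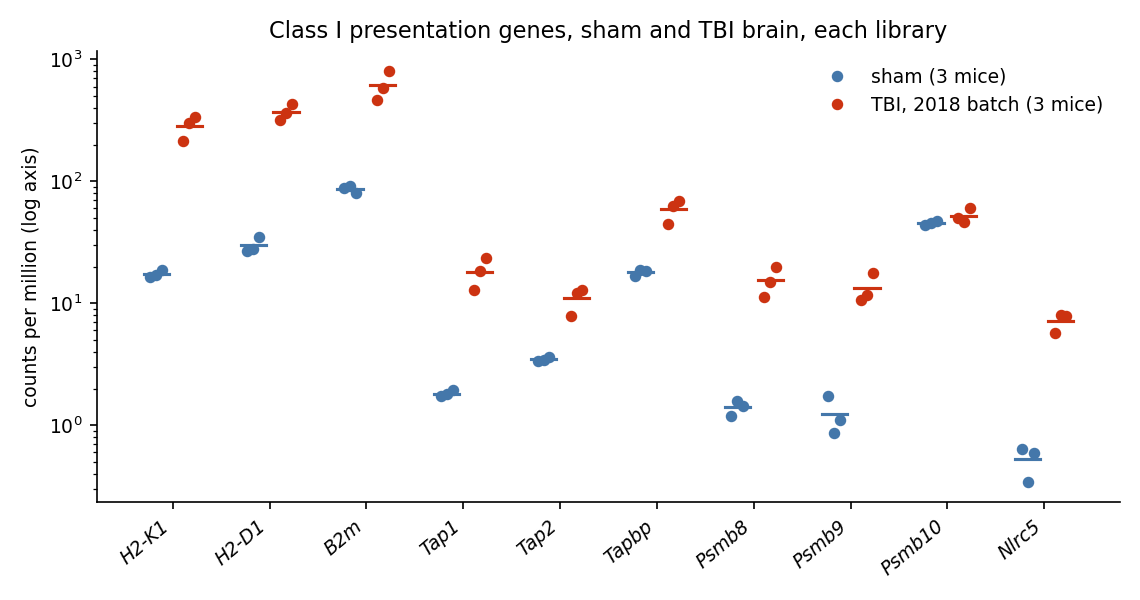
Level of each of the 10 genes in every library of the 2018 batch, in CPM on a log axis, with sham libraries in blue, TBI libraries in red and a bar at each group mean. The groups are apart in 9 genes, from 0.346 to 0.644 against 5.73 to 8.03 CPM in Nlrc5 up to 81.0 to 92.4 against 463 to 801 CPM in B2m, and overlap in Psmb10.

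Among the chains of the class I molecule itself, H2-K1 (ENSMUSG00000061232), a classical heavy chain, stood at 16.6, 17.2 and 18.7 CPM in sham mice and at 214, 299 and 338 CPM after TBI. The lowest TBI library was far above the highest sham library. H2-K1 rose 16.2-fold, from 17.5 ± 1.07 to 284 ± 63.7 CPM (SD, n = 3 each), with a log2 fold change of 4.02 (SE 0.17, edgeR adjusted p = 3.51e-06), the largest rise of the 10 genes. H2-D1 (ENSMUSG00000073411), the second classical heavy chain of this strain, was at 26.9, 28 and 35.1 CPM in sham mice and at 322, 367 and 433 CPM after TBI. The groups again did not overlap, and the rise was 12.5-fold (log2 fold change 3.64, SE 0.146, edgeR adjusted p = 2.95e-06). B2m (ENSMUSG00000060802), the light chain that every class I heavy chain needs to reach the cell surface, stood at 88.6, 92.4 and 81.0 CPM in sham mice and at 463, 579 and 801 CPM after TBI. It was the most abundant of the 10 genes in both groups, and it rose 7.03-fold (log2 fold change 2.81, SE 0.185, edgeR adjusted p = 1.89e-05).

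Set per length, the heavy chains came closer to their light chain. The ratio of the FPKM of H2-K1 to that of B2m was 0.0546 to 0.0675 in sham libraries and 0.124 to 0.151 in TBI libraries. The ratio of H2-D1 to B2m was 0.101 to 0.144 in sham libraries and 0.18 to 0.232 after TBI. Both ratios were apart in all libraries. They were added after the values were seen and carry no test. Class I genes share sequence, so reads can be divided between them. Of the 100-base windows in annotated transcripts of H2-D1, 3.59% also occurred in 1 of 9 other genes, and for H2-K1 the share was 0.957%, in H2-Q10, H2-Q5 and H2-Q7. With 50-base windows the shares were 12.8% for H2-D1, over 168 other genes, and 9.63% for H2-K1, over 25. B2m shared no 100-base window.

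The genes of peptide transport and loading rose by unequal amounts. Tap1 (ENSMUSG00000037321), 1 of the 2 chains of the peptide transporter, stood at 1.73, 1.79 and 1.94 CPM in sham mice and at 13, 18.5 and 23.3 CPM after TBI. The sham values lay close together, the TBI values were spread more widely, and the groups did not overlap. Tap1 rose 10.0-fold (log2 fold change 3.32, SE 0.226, edgeR adjusted p = 2.2e-05). Tap2 (ENSMUSG00000024339), the partner chain, stood at 3.37, 3.42 and 3.66 CPM in sham mice and at 7.87, 12.2 and 13 CPM after TBI. All TBI libraries were above all sham libraries, with TBI replicate 1 the lowest, and Tap2 rose 3.16-fold (log2 fold change 1.66, SE 0.205, edgeR adjusted p = 0.000523). Tapbp (ENSMUSG00000024308), which encodes tapasin, the bridge between TAP and the empty class I molecule, stood at 16.8, 18.8 and 18.3 CPM in sham mice and at 45.1, 62.9 and 69.7 CPM after TBI. It rose 3.30-fold (log2 fold change 1.72, SE 0.152, edgeR adjusted p = 8.12e-05).

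The transporter's chains act as a pair, and their per-length ratio shifted with injury. Tap1 stood at 0.354, 0.363 and 0.365 of the FPKM of Tap2 in sham libraries and at 1.14, 1.04 and 1.24 of it after TBI. In FPKM, Tap2 exceeded Tap1 in every sham library and Tap1 exceeded Tap2 in every TBI library of 2018. In the TPM of the 2022 TBI libraries, which were normalized separately, the ratio was 0.728, 1.12 and 0.833, with Tap1 below Tap2 in 2 of the 3. This ratio was also added after the values were seen and carries no test. Part of the exonic sequence of these genes is annotated in a neighbour as well: 212 bases of Tap1 and Psmb9 overlap on opposite strands, and 14.8% of the 100-base windows of Tapbp occur in other genes, nearly all in Gm19412. Whether counting used the strand is not given in the sources used here, so reads of such stretches cannot be assigned to 1 gene with certainty.

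The immunoproteasome is formed when Psmb8, Psmb9 and Psmb10 replace the constitutive catalytic subunits Psmb5, Psmb6 and Psmb7. Psmb8 (ENSMUSG00000024338, the LMP7 subunit) stood at 1.2, 1.58 and 1.43 CPM in sham mice and at 11.4, 14.9 and 20.0 CPM after TBI, an 11.0-fold rise (log2 fold change 3.45, SE 0.239, edgeR adjusted p = 2.37e-05). Psmb9 (ENSMUSG00000096727, the LMP2 subunit) stood at 1.73, 0.865 and 1.12 CPM in sham mice and at 10.7, 11.7 and 17.8 CPM after TBI, a 10.8-fold rise (log2 fold change 3.44, SE 0.3, edgeR adjusted p = 7.48e-05). In both genes the groups were well apart, and TBI replicate 3 was the highest library. Psmb10 (ENSMUSG00000031897, the MECL-1 subunit) was different. It stood at 43.8, 45.6 and 47.1 CPM in sham mice and at 50.4, 46.3 and 60.1 CPM after TBI. TBI replicate 2 lay below sham replicate 3, and the log2 fold change of 0.20 (SE 0.103) did not pass the test (edgeR adjusted p = 0.187).

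To set each replacing subunit against the one it replaces, FPKM ratios were formed within each library. Psmb8 was at 0.00461 to 0.00687 of Psmb5 in sham libraries and at 0.0435 to 0.0656 after TBI, a difference of 3.27 in the log2 ratio. Psmb9 was at 0.00458 to 0.00925 of Psmb6 in sham libraries and at 0.0506 to 0.0715 after TBI, a log2 difference of 3.19. Psmb10 was at 0.932 to 1.03 of Psmb7 in sham libraries and at 1.21 to 1.38 after TBI, a log2 difference of 0.37. In the separately normalized TPM of the 2022 TBI libraries, Psmb10 was at 0.382 to 0.414 of Psmb7. Psmb8 was at 0.175 to 0.239 of Psmb5 in the same libraries. The 2022 libraries differ from those in FPKM in mice, batch and unit, and the cause of the different ratios was not tested. In all 3 ratios the TBI libraries lay above the sham libraries, and each gave a two-sided exact permutation p of 0.1, the smallest that 3 against 3 libraries allow. The constitutive subunits themselves moved little: Psmb5 and Psmb7 did not pass (log2 fold changes 0.16 and -0.17, edgeR adjusted p = 0.21 and 0.113), and Psmb6 rose by 0.28 (edgeR adjusted p = 0.0264). That call on Psmb6 was lost with the replicate block, with the trend in gene length removed, without any 1 of the 3 sham libraries and without TBI replicate 3, and with the length trend removed Psmb7 was called lower.

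**Figure D2:**
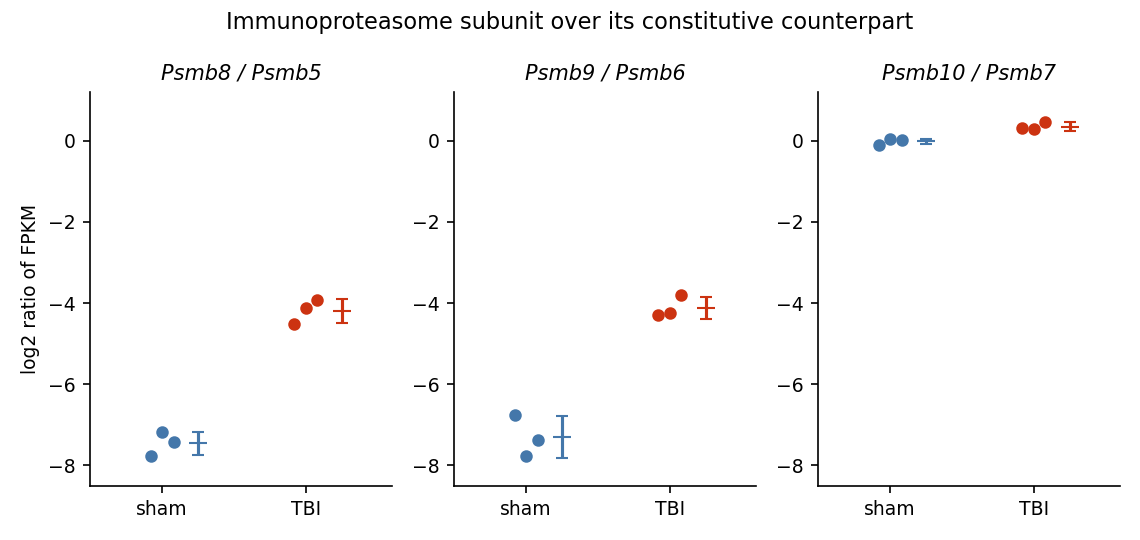
Log2 ratio of FPKM of Psmb8 to Psmb5, Psmb9 to Psmb6 and Psmb10 to Psmb7 in each sham (blue) and TBI (red) library of 2018, with group means ± SD beside the points. The first 2 ratios shift by 3.27 and 3.19 and stay below 0, and the third lies near 0 in both groups, with means of -0.02 and 0.35.

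Nlrc5 (ENSMUSG00000074151), which encodes the NLR protein that drives transcription of class I genes, was the least abundant of the 10 genes. It stood at 0.644, 0.346 and 0.589 CPM in sham mice, from 29, 16 and 28 counts, and at 5.73, 8.03 and 7.87 CPM after TBI, from 282, 391 and 339 counts. The lowest TBI library was far above the highest sham library. Nlrc5 rose 13.6-fold (log2 fold change 3.77, SE 0.281, edgeR adjusted p = 3.33e-05), the second largest rise after that of H2-K1. On log2(FPKM + 1), where a low gene moves less, its difference was 0.81.

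The rises reordered the set. By mean FPKM in sham libraries the order was B2m, Psmb10, H2-D1, H2-K1, Tapbp, Tap2, Psmb8, Psmb9, Tap1 and Nlrc5, from 99.7 ± 6.51 down to 0.0608 ± 0.0182 FPKM (SD, n = 3). After TBI it was B2m, H2-D1, H2-K1, Psmb10, Tapbp, Psmb8, Psmb9, Tap1, Tap2 and Nlrc5, from 726 ± 197 down to 0.864 ± 0.16 FPKM. The ranges of Psmb8 and Psmb9, and of Psmb9 and Tap1, overlapped in both groups, and those of Tap1 and Tap2 overlapped after TBI. All other neighbours in either order were apart in every library. Among all genes of the table, B2m moved from rank 389 to rank 27 by mean FPKM, H2-D1 from 4267 to 255 and H2-K1 from 6959 to 424.

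Mice of the TBI group did not respond alike. The TBI library of replicate 3 was the highest of the 6 libraries in 9 of the 10 genes, and replicate 1 was the lowest TBI library in 9 of them. The median of the 10 genes, relative to the sham mean, was 7.62-fold in replicate 1, 9.81-fold in replicate 2 and 13.5-fold in replicate 3. Summed markers of activated microglia and macrophages ran in the same order, at 9139, 9771 and 11840 CPM, of which Apoe, which astrocytes also express, made up 7833, 8412 and 9176 CPM. This order was not particular to that list. Homeostatic microglia markers had it as well, at 625, 656 and 809 CPM, and monocyte markers at 62.5, 68.2 and 91.7 CPM. So did neutrophil markers, at 17, 27.5 and 65 CPM, and the low sums of B cells and NK cells. Summed markers of every other cell type listed did not have it, astrocytes among them (7403, 7739 and 7431 CPM).

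Of the 10 genes, 7 lie on chromosome 17, from Tapbp at 33915899 to the end of H2-D1 at 35267499 (GENCODE M21 on GRCm38, a build that the submitters' notes do not name). Psmb9, Tap1, Psmb8 and Tap2 lie side by side between 34181987 and 34216321. B2m is on chromosome 2, and Psmb10 and Nlrc5 are on chromosome 8. Of 68 other protein-coding genes tested in that interval of chromosome 17, 22 were called higher after TBI (32.4%, against 16.8% of all genes) and 1 lower, with a median log2 fold change of 0.27. The interval also holds most of the class I relatives and the class II genes, so its genes are not unrelated to the 10. Around the cluster of 4, the class II genes H2-Aa and H2-Ab1, whose products present peptides to CD4+ T cells, had log2 fold changes of 4.85 and 4.39, while Brd2 (-0.06, edgeR adjusted p = 0.581) did not pass. These 3 neighbours were named after their values were seen.

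The other genes of the pathway were counted from 8 lists. Of 20 other class I heavy chains and relatives, 16 were tested and 11 rose, none fell, with a median log2 fold change of 1.31. With at least 10 counts asked of every library, 12 were tested and 10 rose. No sham library held a count of H2-Q6 and the TBI libraries held 20, 36 and 66. The rise was at least 14.0-fold if each sham library is given 3 counts, a limit that covers counting error only. This limit takes each count as 1 fragment, and it is lower where both reads of a pair are counted. For H2-Q7 the counts were 4, 0 and 1 with sham surgery against 38, 85 and 55 with injury. H2-Q6 and H2-Q7 passed the filter through the TBI group, so their calls support nothing about the list. The 11 of 16 and the median of 1.31 include them. H2-Q4 rose from 0.942 ± 0.169 to 18.2 ± 5.95 CPM (SD, n = 3 each; edgeR adjusted p = 2.28e-05), and H2-T23, the Qa-1 chain that NK cell receptors read, from 14.1 ± 1.34 to 53.9 ± 12.5 CPM (edgeR adjusted p = 7.26e-05). The H2-Q genes share sequence with each other and with the classical chains, so how the reads are split between them is uncertain.

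Rises were smaller among the general partners of peptide loading. Of 10 tested, 7 rose and none fell, with a median log2 fold change of 0.34. That count was 3 without sham replicate 1, 4 without sham replicate 2, 1 without sham replicate 3 and 2 without TBI replicate 3. It was 2 with the replicate block and 3 with the trend in gene length removed. Erap1, which trims peptides inside the endoplasmic reticulum, had the largest (1.06, edgeR adjusted p = 0.00113), followed by the tapasin relative Tapbpl (0.59, edgeR adjusted p = 0.0328) and the disulfide isomerase Pdia3 (0.51, edgeR adjusted p = 0.0166). Calr, the most abundant of the list, rose by 0.49 (edgeR adjusted p = 0.0348).

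In the proteasome, rises were seen in few genes beyond the immunoproteasome subunits. None of 12 other genes of the 20S core or its assembly was called by edgeR (1 had an unadjusted p under 0.05), with a median log2 fold change of 0.03. DESeq2 called none of the 12 either, and Pomp, an assembly factor (0.21, edgeR adjusted p = 0.0792, named after its values were seen), was called with limma after the filter on low FPKM, with library totals alone and without TBI replicate 2. Psmb4, the most abundant of them, had 0.04 (edgeR adjusted p = 0.823). Of 4 proteasome activators, Psme1 and Psme2, the interferon-responsive chains of the 11S cap, rose by 0.98 and 1.14 (edgeR adjusted p = 0.000865 and 0.00377). Psme3, the most abundant, had -0.15 (edgeR adjusted p = 0.175).

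Upstream, 21 of 22 genes of interferon gamma signalling and class I transcription were tested, of which 10 rose and 1 fell, with a median log2 fold change of 0.52. Irf8, a transcription factor of myeloid cells, rose by 3.01 (edgeR adjusted p = 5.39e-06), and Irf9, a DNA-binding factor of the type I interferon response, by 2.06 (edgeR adjusted p = 9.67e-05). Jak1, the most abundant of the list, had -0.05 (edgeR adjusted p = 0.694), and Nfyb, a subunit of the factor that binds the Y box, fell by 0.37 (edgeR adjusted p = 0.00691). Ifng itself, the ligand, had 0 counts in all 6 libraries, so at this depth no transcript of it was detected.

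Of 10 genes listed as receptors for class I or their relatives, 5 were tested and 3 rose. A place on the list does not show that a receptor binds class I. Lilr4b and Lilrb4a passed the filter through the TBI group, so that the count supports nothing about the list, and with at least 10 counts asked of every library 2 were tested and 1 rose. The 3 encode immunoglobulin-like receptors of myeloid cells: Lilr4b (2, 0 and 4 counts in sham mice, 249, 362 and 657 after TBI) and the inhibitory receptors Lilrb4a (3, 15 and 7 against 110, 337 and 257) and Pirb (37, 17 and 16 against 306, 433 and 468). Cd8a and Cd8b1, the chains of the T cell co-receptor for class I, were too low to be tested, at 0 counts in every sham library and at 4, 25 and 10 (Cd8a) and 4, 7 and 13 (Cd8b1) after TBI. Of the 7 cytotoxic effectors, the chemokine Ccl5 (0, 0 and 2 counts against 124, 272 and 191) and the granzymes Gzmb (0 in all sham libraries against 22, 20 and 16) and Gzma (4, 0 and 0 against 29, 74 and 46) were tested because their TBI libraries passed the filter, so no count of calls is drawn from the list. With at least 10 counts asked of every library 1 of the 7 was tested and none was called, also not at an unadjusted p under 0.05. All 3 had few counts beside the heavy chains, which held 10517 to 18639 counts in the TBI libraries.

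**Figure D3:**
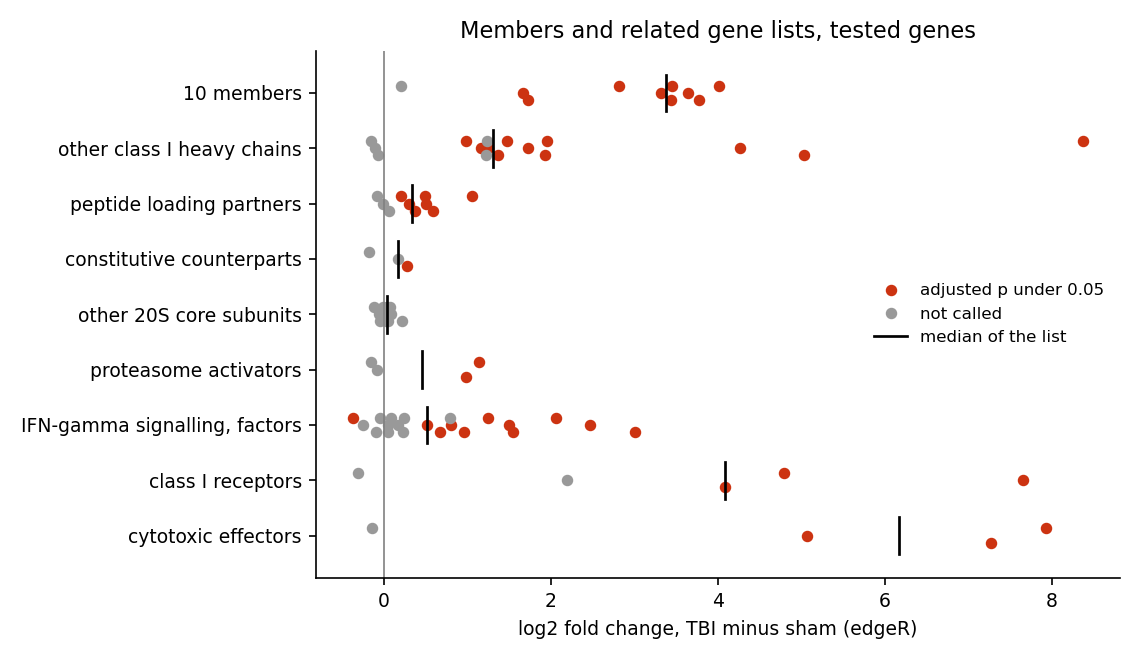
Log2 fold change (edgeR) of TBI over sham for each tested gene of the 10 members and of the 8 related lists, 1 point per gene, red with an adjusted p under 0.05 and grey without, with a bar at each list's median. The members centre on 3.38, the other class I chains on 1.31, loading partners on 0.34 and the other 20S core genes on 0.03. The points include genes that passed the filter through the TBI group, H2-Q6 and H2-Q7 among them.

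Cell type markers moved with these rises. All 8 markers of homeostatic microglia and all 10 of activated microglia and macrophages rose, with summed levels of 225 to 263 against 625 to 809 CPM and of 1566 to 1821 against 9139 to 11840 CPM. All 6 monocyte markers rose (28.2 to 31.2 against 62.5 to 91.7 CPM, of which Vcan, which other brain cells also express, made up 24.6 to 27.8 and 36.8 to 43.3 CPM), as did 4 of 5 tested neutrophil markers (0.71 to 1.24 against 17 to 65 CPM), with Ly6g, Camp and Cxcr2 at 0 in all sham libraries. A marker at 0 in all sham libraries can pass the filter only through the TBI group, so the neutrophil count supports nothing about its list. Astrocyte markers rose in 6 of 7 genes (3813 to 4260 against 7403 to 7739 CPM) and endothelial markers in 6 of 7 (80.4 to 109 against 120 to 180 CPM). Neuronal markers fell in 4 of 8 genes (8050 to 8676 against 5130 to 6429 CPM). Of the T cell markers, 6 of 13 could be tested, and Cd3g rose and Trbc2 fell. Cd3g (0, 4 and 0 counts in sham mice, 12, 16 and 26 after TBI) passed the filter through the TBI group, so its call supports nothing about the list. The summed T cell list, 797 to 851 against 652 to 748 CPM, consisted mostly of Thy1, which neurons also express. The single tested NK cell marker also passed the filter through the TBI group, so no call is drawn from it. The summed NK cell list was 0.0432 to 0.189 against 1.22 to 4.53 CPM, with Ncr1, Klrb1c, Klra8 and Klre1 at 0 in all sham libraries. B cell markers had low sums (0.695 to 1.41 against 2.18 to 2.25 CPM), and 1 of 2 tested genes rose, so no weight is placed on that call. Oligodendrocyte markers rose in 4 of 7 genes (5489 to 6178 against 6265 to 11400 CPM), and fibroblast and meningeal markers in 5 of 6 (186 to 190 against 248 to 813 CPM). None of 5 choroid plexus markers was called, also not at an unadjusted p under 0.05. The part of these cells in the class I rises was not tested.

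To ask whether zileuton altered class I presentation after injury, the 3 zileuton libraries of 2022 were compared with the 3 TBI libraries of the same batch. The columns of that table cannot be tied to single mice, and its libraries are called A, B and C in column order. All 10 genes had a fitted log2 fold change below 0, as 49.3% of all 17363 genes did, from -0.57 in Psmb9 to -0.26 in Nlrc5 with a median of -0.41, against 0.00 over all genes. None was called by edgeR at an adjusted p under 0.05 (0% of all genes were), and none by DESeq2 or limma, which called 28 and 4 genes of the whole table. Adjusted p-values of the 10 genes ran from 0.713 to 0.872. An unadjusted p under 0.05 was reached by 3 of them (B2m, Psmb9 and Psmb10), and 3.9% of all genes reached it in the lower direction. In 9 of the 10 genes the groups overlapped. B2m was the exception, with every zileuton library below every TBI library, as held for 7.04% of all genes. In TPM B2m overlapped as well, with the highest zileuton library at 1125 and the lowest TBI library at 1090.

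**Figure D4:**
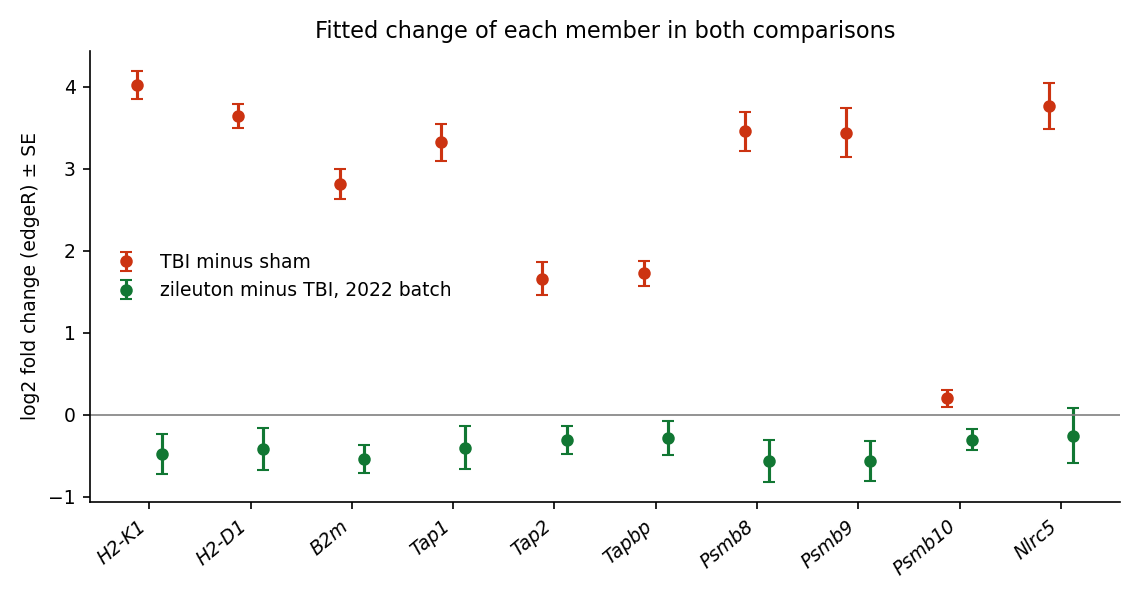
Log2 fold change (edgeR) ± SE of each gene for TBI minus sham (red, 2018) and zileuton minus TBI (green, 2022), with 0 as a grey line. The red points run from 0.20 to 4.02 and the green points from -0.57 to -0.26, and the green changes did not pass the test.

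For the chains of the class I molecule, B2m stood at 388, 461 and 577 CPM in TBI libraries A, B and C and at 388, 310 and 281 CPM in the zileuton libraries. Zileuton library A was level with TBI library A to 3 digits, and the other 2 were lower than all TBI libraries. The log2 fold change was -0.54 (SE 0.167, unadjusted p = 0.0114, edgeR adjusted p = 0.713). H2-K1 stood at 153, 171 and 228 against 186, 112 and 97.1 CPM (log2 fold change -0.48, SE 0.244, edgeR adjusted p = 0.713), and H2-D1 at 230, 268 and 401 against 303, 193 and 175 CPM (-0.42, SE 0.253, edgeR adjusted p = 0.729). In both heavy chains zileuton library A lay within the TBI range and libraries B and C below it.

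Among the transport and loading genes, Tap1 stood at 14.1, 26.7 and 21.9 CPM in the TBI libraries and at 21.2, 13.4 and 12.9 CPM in the zileuton libraries (log2 fold change -0.40, SE 0.264). Tap2 stood at 18.9, 24.0 and 25.4 against 22.7, 16.8 and 15.3 CPM (-0.32, SE 0.172), and Tapbp at 62.0, 95.4 and 94.3 against 87.7, 63.8 and 55.5 CPM (-0.28, SE 0.206). Zileuton library A lay within the TBI range in all 3 genes, as did library B in Tapbp, and the edgeR adjusted p-values were 0.743, 0.72 and 0.761. The ratio of Tap1 to Tap2 was 0.728 to 1.12 of TPM in the TBI libraries and 0.887 to 0.952 in the zileuton libraries.

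Among the immunoproteasome subunits, Psmb8 stood at 17.4, 20.8 and 22.4 CPM in the TBI libraries and at 20.1, 10.8 and 10.1 CPM with zileuton (log2 fold change -0.56, SE 0.254, edgeR adjusted p = 0.713). Zileuton libraries B and C were at the lower end, well under the TBI range. Psmb9 stood at 6.48, 11.4 and 9.77 against 7.93, 5.75 and 5.02 CPM (-0.57, SE 0.245, unadjusted p = 0.0488, edgeR adjusted p = 0.713), and Psmb10 at 33.8, 39.4 and 40.1 against 35, 25.6 and 30.8 CPM (-0.31, SE 0.128, unadjusted p = 0.0413, edgeR adjusted p = 0.713). The log2 ratios of TPM to the constitutive counterpart differed by -0.56 for Psmb8, -0.38 for Psmb9 and -0.07 for Psmb10, with overlapping groups and two-sided exact permutation p-values of 0.2, 0.4 and 0.7. Nlrc5 was the most variable, at 3.94, 10.2 and 6.49 CPM in the TBI libraries and at 7.6, 4.37 and 5.37 CPM with zileuton (-0.26, SE 0.341, edgeR adjusted p = 0.872). Its sign turned to 0.15 without TBI library B and to 0.00 and 0.05 with limma on log2(TPM + 1) and log2(TPM + 0.1).

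The downward shift rested on 2 of the 3 zileuton libraries. Relative to the mean of the TBI libraries, the median of the 10 genes was 1.00 in zileuton library A, 0.642 in library B and 0.603 in library C. Library A lay below all TBI libraries in 1 gene (B2m), library B in 8 and library C in 9. On the other side, TBI library A had a median of 0.792 and was the lowest TBI library in all 10 genes. Without zileuton library A, 9 of the 10 genes had an unadjusted p under 0.05, as did 1909 of all 17632 genes tested, in either direction. Without TBI library A 6 did, and 1084 of all 17720. The number was 1 without any 1 of the other 4 libraries, with 689 to 1433 of all genes. None of the 10 had an adjusted p under 0.05 in any of these fits. With no filter beyond 1 count, 7 of the 10 had an unadjusted p under 0.05, as did 1766 of all 29601 genes. With DESeq2 5 did (1148 of all 17363). With limma (1127 to 1506 of all genes) or with the trend in gene length removed (778 of all 16936) 1 did.

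**Figure D5:**
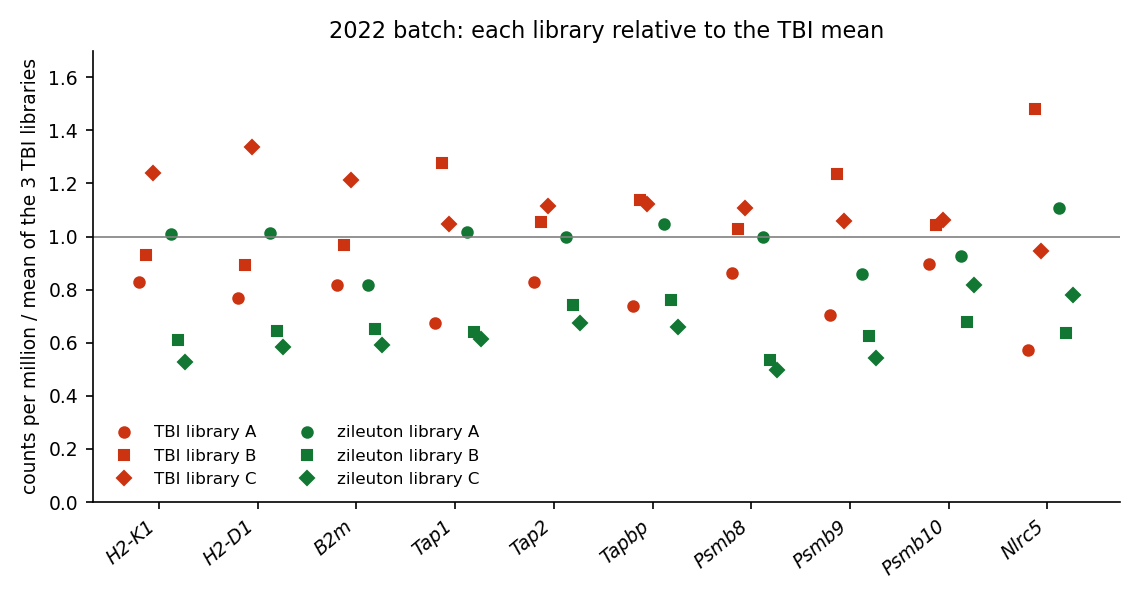
CPM of each gene in every library of 2022, divided by the mean of the 3 TBI libraries (grey line at 1), with TBI libraries in red and zileuton libraries in green. Zileuton libraries B and C lie between 0.499 and 0.816, while zileuton library A lies between 0.816 and 1.11, among the TBI libraries in 9 of the 10 genes.

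Several cell type markers differed between the libraries of 2022. Summed markers of activated microglia and macrophages stood at 5812, 7677 and 10830 CPM in TBI libraries A, B and C and at 8465, 5959 and 5647 CPM in the zileuton libraries, and monocyte markers at 39.4, 57.4 and 61.2 against 66.1, 47.3 and 43.5 CPM. In both lists TBI library A was the lowest TBI library and zileuton library A the highest zileuton library, as in all 10 genes. Homeostatic microglia markers followed at 703, 975 and 1028 against 968, 829 and 729 CPM. The order was not particular to these lists. Astrocyte markers had it as well, at 6346, 7605 and 7494 against 8733, 7169 and 7490 CPM. So did choroid plexus markers, at 10.9, 476 and 1053 against 1473, 1278 and 14.8 CPM, and the low sums of B cells and NK cells. T cells, neurons, endothelial cells, and fibroblasts and meninges did not have it. Neutrophil markers stood at 5.83, 7.15 and 4.49 against 8.29, 2.2 and 1.53 CPM, with TBI library C the lowest of its group, and oligodendrocyte markers at 4297, 7695 and 9505 against 8889, 9031 and 8723 CPM. None of the lists of activated microglia and macrophages, monocytes and homeostatic microglia had a gene called by edgeR (1 of 10, 2 of 6 and 0 of 8 genes had an unadjusted p under 0.05). The part of these cells in the class I values was not tested.

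In the 8 related lists, none of 71 tested genes was called with zileuton by edgeR, DESeq2 or limma. By edgeR, 12 had an unadjusted p under 0.05, all lower, and 54 had a fitted log2 fold change below 0. All 12 tested genes of the other 20S core list were below 0, with a median of -0.16, and 5 of them had an unadjusted p under 0.05, Psmb4 among them (-0.29, unadjusted p = 0.0136, edgeR adjusted p = 0.713). The 5 became 9 without TBI library B, 2 without zileuton library B and 3 without any 1 of the other 4 libraries. With the trend in gene length removed they became 2, and 9 of the 12 genes were below 0. Psme1 and Psme2 were at -0.26 and -0.38 (unadjusted p = 0.0193 and 0.00302, edgeR adjusted p = 0.713 each), with every zileuton library below every TBI library in both. Irf9 was at -0.50 (edgeR adjusted p = 0.713), while Irf8 was at -0.12 (edgeR adjusted p = 0.92). The other class I chains had a median of -0.24, with H2-Q4 at -0.48, H2-T23 at -0.44 and H2-Q7 at -0.44. H2-Q6 was at 95.4, 146 and 144 estimated counts in the TBI libraries and at 111, 86.7 and 0 in the zileuton libraries, so the value of zileuton library C stood apart. Ifng had 0, 0 and 2 estimated counts against 1, 0 and 0, and Cd8a 3, 1 and 6 against 9, 4 and 6.

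Within groups, each of the 10 genes was correlated with the mean of the others. After the mean of each group was removed, the correlation of each gene's log2 CPM with the mean of the other 9 over the 12 libraries ran from r = 0.67 in Nlrc5 to r = 0.951 in Tap1. The same values were not computed for other genes, so they do not set the 10 apart. The mean of the 10 genes deviated by -0.08 to 0.06 in sham libraries and by -0.36 to 0.41 in the other libraries, so the correlations rest mostly on the latter. Among 16506 genes tested in both batches, the 5 whose log2 CPM was most like the mean of the 10 genes were Dhrs1 (r = 0.986), Aldh3b1 (0.982), Nfatc1 (0.978), Ccdc80 (0.97) and Lgmn (0.963). Within the 6 libraries of 2018 the r of Dhrs1 was 0.98 and within those of 2022 it was 0.993. These 5 are the highest of many correlations over 12 libraries, which differ in batch, depth and cell make-up, and they are given as a description.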

How the data were processed

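Brain RNA of 12 mice in 4 groups of 3 was analysed. For 2018 the authors deposited raw counts and FPKM per Ensembl identifier, and for 2022 estimated counts and TPM (13.0% to 15.2% of values not whole), which were rounded for the count test. Per the labels, libraries were paired-end and poly(A)-selected. The submitters' processing notes name HISAT2, featureCounts, Subread, DESeq2 and GRCm39. The annotation and the use of strand are not given in the sources used here. In 2018, 62.3% to 64.4% of counts from 1 to 20 were even, as where both reads of a pair are counted. Each replicate is a mouse, and p-values measure the spread between 3 mice.

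Counts were tested in R 4.3.3 with edgeR 4.0.16 (TMM, filterByExpr, glmQLFit, glmQLFTest), with Benjamini-Hochberg adjustment over all genes tested and a threshold of 0.05. The study's own test was a two-sided test at an unadjusted p of 0.05. SE is the log2 fold change divided by the square root of F. CPM uses TMM library sizes. Ratios of FPKM or TPM were compared by two-sided exact permutation. The members and gene lists were chosen with earlier results of these data known. Named genes were the 10 members, their constitutive counterparts, the 3 largest called changes and the most abundant gene of each list, Ifng, Cd8a, Cd8b1, Gfap, Cd68 and the 5 genes most like the members. One gene that this rule names is not reported here. Alternatives were other scalings, filters, a robust fit, DESeq2 1.42.0, limma 3.58.1 on log2(value + 1) and log2(value + 0.1), a replicate block, gene length, halved counts and leaving out each library. On simulated counts of the sham and TBI design, edgeR recovered 65.3% of 2-fold and 81.4% of 4-fold changes among 19178 genes, and in the zileuton design 70.7% and 93.9% among 17114. Of the simulated calls, 7.84% and 7.39% were false in these designs. Changes smaller than 2-fold were not simulated. Figures used Python 3.11.15 and matplotlib 3.10.9.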

Additional observations from a re-analysis of the deposited data

How the results depend on the processing

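In the sham and TBI comparison, all 118 values of the 10 genes under alternative settings and all 60 values with a library left out kept their direction and their side of the threshold. With library totals alone the median of all genes was 0.07. The count of genes called was 5479, from 3713 (limma without a filter, 2656 higher and 1057 lower) to 6225 (DESeq2), and 3848 to 4956 with a library left out. Shared replicate numbers did not pair the libraries: deviations from the group means correlated at -0.02, -0.09 and -0.03 between same-numbered sham and TBI libraries, and at -0.28, 0.06 and -0.28 in 2022. The replicate block gave 4337 calls and left 9 of the 10 genes called.

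In the zileuton comparison edgeR called 0 genes, DESeq2 28, edgeR without a filter 4, limma 4 on log2(TPM + 1) and 3 on log2(TPM + 0.1). An unadjusted p under 0.05 was reached by 1186 genes, by 729 with the replicate block, by 778 with the trend in gene length removed (Spearman rho of length and log2 fold change 0.386 across genes, which are not independent), and by 689 to 1909 with a library left out (1909, 689 and 777 without zileuton libraries A, B and C). Of the 10 genes, 3 reached it, 5 with DESeq2 (1148 of all 17363 genes) and 7 without a filter (1766 of all 29601). The number was 1 with each of the 3 limma settings, the block and the length trend removed, and 1 to 9 with a library left out. The sign of Nlrc5 turned to 0.001416 with limma on log2(TPM + 1), with or without a filter, to 0.0539 on log2(TPM + 0.1), and to 0.15 without TBI library B, the highest of -0.53 to 0.15 with a library left out. The other 107 alternative and 59 left-out values of the 10 genes kept their sign and side. The causes of these moves were not tested. With 3 mice a group, exact permutation cannot give a p under 0.1, and Nlrc5 had 16 to 29 counts in the sham libraries.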
